A study of Homo sapiens with 6 samples.

Results

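The 42 genes described here are the KEAP1-NRF2 factors, known NRF2 target genes, and enzymes that remove peroxides and superoxide or reduce glutathione and thioredoxin. They were listed by gene name, with earlier results of these data known, and 41 of them matched a row among the 29483 genes of the expression table. *SOD2* had no row under the gene ID that the reference tables give for it, and rows whose IDs the tables do not name were not used, so no value is given for it. All 41 had a mean FPKM (fragments per kilobase of gene, scaled to the library's reads) of at least 0.5 over the 6 libraries and were tested among 13599 genes.

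The libraries came from HK-2 cells, an immortalized human line derived from proximal tubule epithelium. Both groups grew in medium with 25 mM glucose (HG) for 7 days before treatment, and no group at normal glucose was analysed here. The control group (n = 3) received no compound, and the case group (n = 3) also received 10 µM TEPP-46 for 1 day, a small-molecule activator of pyruvate kinase M2. Reads on genes numbered 17378710 to 18634891 per control library and 15363254 to 16711934 per case library.

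NRF2, encoded by *NFE2L2*, is a transcription factor that KEAP1 holds in the cytoplasm and marks for degradation. Electrophiles and oxidants modify cysteines of KEAP1, and NRF2 then accumulates, pairs with a small MAF protein, and binds antioxidant response elements near genes for glutathione synthesis, thioredoxin reduction, quinone reduction, and iron storage. BACH1, a heme-sensitive repressor, competes for the same elements. Proximal tubule cells consume much oxygen and are exposed to filtered toxicants, and this enzyme system is well studied in them.

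The core of the antioxidant response element was searched as TGACNNNGC on both strands in RefSeq promoter windows (GRCh38.p14, 250 bases before to 50 bases after a start), which were listed for 33 of the 42 genes (not for *HMOX1*, *FTH1*, *GSS*, *GSR*, *PRDX1*, *PRDX6*, *SOD1*, *AKR1B10*, and *ABCC1*). It was present in 4 of the 33 windows (12.1%), beside 13.3% of all 35116 windows of the same length. *MAFF* was the only upregulated gene among these 4. The sites are shown because NRF2 binds elements of this kind, and they are given on the strand of the gene, with 10 bases on each side and the site in capitals. The *OSGIN1* window held no TGACNNNGC but did hold TGANTCA, the AP-1 site, which is shown because *OSGIN1* had the largest change. TGANTCA, which reads the same on both strands, was present in 7.71% of all windows and can overlap TGACNNNGC, as it did in *GSTP1*.
MAFF: cttccaggggGCGGGGTCAtacgggggcg
OSGIN1: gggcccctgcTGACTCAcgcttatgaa
GCLM: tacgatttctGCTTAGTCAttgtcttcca
TXNRD1: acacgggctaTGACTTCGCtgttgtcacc
TXNRD1: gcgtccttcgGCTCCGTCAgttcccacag
GSTP1: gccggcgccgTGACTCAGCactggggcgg

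The *MAFF* stretch is chr22:38201862-38201890 on the plus strand, with the site starting at base -122 from the RefSeq start, inside an exon of a *MAFF* transcript that retains an intron and in an intron of *PLA2G6* on the other strand. The *OSGIN1* stretch is chr16:83953133-83953159 on the plus strand, with the site at base -97, intronic to longer *OSGIN1* transcripts. The *GCLM* stretch is chr1:93909446-93909474 on the minus strand, with the site at base -34, at the edge of the 5′ UTR of an alternative *GCLM* transcript. The *TXNRD1* stretches are chr12:104215670-104215698, upstream of all annotated transcripts with its site at base -99, and chr12:104215761-104215789, with its site at base -8, overlapping the 5′ UTR of a *TXNRD1* transcript. The *GSTP1* stretch is chr11:67583736-67583764 on the plus strand, with the site at base -66, in the 5′ UTR of an alternative *GSTP1* transcript. The well-known element of *NQO1* lies farther upstream than these windows reach, and a match or its absence is a description of letters only.

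Among the 41 genes, 7 were upregulated DE genes in the case group at an adjusted p of at most 0.05 (17.1%), beside 7.34% of all tested genes. They were *OSGIN1*, *MAFF*, *NFE2L2*, *SOD1*, *MAFG*, *NQO1*, and *GSR*. None was downregulated by limma with the main settings, beside 5.84% of all tested genes, and 1 (*ABCC1*) was lower at an unadjusted p under 0.05, where 16.2% of all tested genes were. The same gene was downregulated by limma-voom on recovered reads, with FPKM as deposited, with a filter at a mean of 1 FPKM, and, together with *PRDX5* or *GPX3*, with quantile normalization or TPM. At that unadjusted level 20 of the 41 were higher, beside 16.8% of all tested genes. The log2 fold change was above 0 in 35 of the 41, beside 49.8% of all tested genes, and its median was 0.21, beside -0.0017 over all tested genes. After scaling between libraries, all 3 case values lay above all 3 control values for 23 of the 41 and below them for 1, beside 19.5% and 20.4% of all tested genes. In bulk RNA, a change in the share of cells that express a gene and a change in RNA per cell cannot be told apart.

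**Figure D1:**
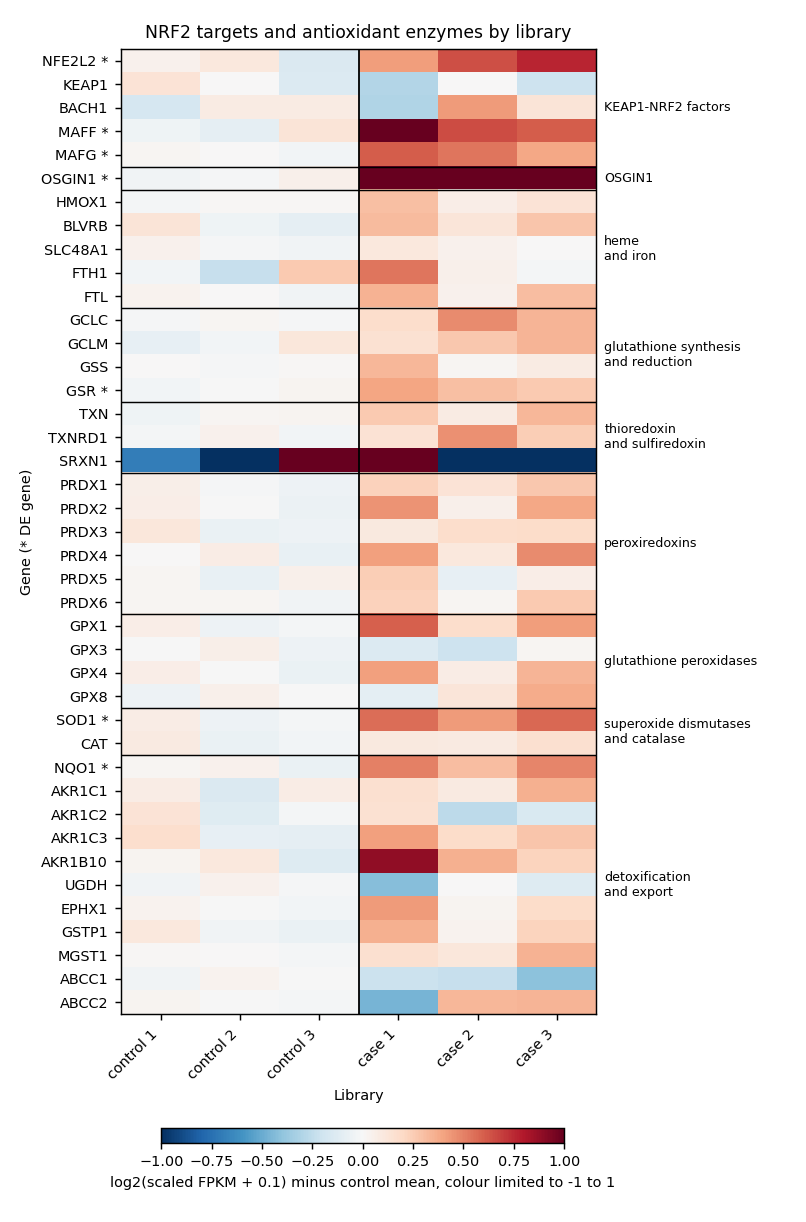
Heat map of the 41 genes (rows, by role) in the 6 libraries (columns), coloured by log2(scaled FPKM + 0.1) minus the mean of the control group, with the colour limited to -1 to 1 and asterisks for the 7 DE genes. The case columns are mostly red, *OSGIN1* is at the colour limit in all 3 case libraries, and *SRXN1* differs between libraries of the same group.

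The genes were not equally abundant. In the control group *FTL* had the highest mean FPKM of the 41, at 2684 ± 57.4 (SD, n = 3), followed by *TXN* at 552.5 ± 17.7, *PRDX5* at 483.6 ± 22.6, and *NQO1* at 387.2 ± 14.5. The NRF2 factors themselves had lower levels per length, from 4.40 ± 0.45 FPKM for *BACH1* to 25.5 ± 0.30 for *MAFG*. *AKR1C2*, *ABCC2*, and *SRXN1* averaged below 1 FPKM. When all tested genes were ordered by mean FPKM and divided into 4 equal groups, 30 of the 41 were in the most abundant group, where the median log2 fold change of all genes was 0.12 and 15.6% of genes were upregulated, and 6 of the 7 DE genes were among those 30.

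Of the 5 KEAP1-NRF2 factors, 3 were upregulated and 2 were not DE genes. *NFE2L2* (ENSG00000116044, chr2:177218667-177392756) had FPKM values of 14.1, 14.8, and 12.4 in control replicates 1 to 3 and 16.8, 21.1, and 22.3 in case replicates 1 to 3. The groups did not overlap, and case replicate 1 was the lowest of the case values. The log2 fold change was 0.61 (SE 0.11, adjusted p = 0.0195), which is 1.52-fold with a 95% confidence interval of 1.27 to 1.83. With TPM the log2 fold change was 0.41 (adjusted p = 0.0590).

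*MAFF* (ENSG00000185022, chr22:38200767-38216507) and *MAFG* (ENSG00000197063, chr17:81918270-81927735) encode small MAF proteins, which have no activation domain of their own and give NRF2 its DNA-binding partner. *MAFF* had FPKM values of 8.08, 7.85, and 9.16 in the control group and 15.8, 12.9, and 12.2 in the case group, with a log2 fold change of 0.76 (SE 0.13, adjusted p = 0.0153). *MAFG* had 25.7, 25.6, and 25.1 in the control group and 35.4, 36.1, and 31.7 in the case group, with a log2 fold change of 0.51 (SE 0.082, adjusted p = 0.0143). For both genes each case value was above each control value, and the control values of *MAFG* were close together while its lowest case value was in replicate 3.

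*KEAP1*, the inhibitor, had FPKM values of 9.05, 8.32, and 7.53 in the control group and 6.14, 8.12, and 6.82 in the case group. The groups overlapped, and the log2 fold change was -0.17 (95% confidence interval -0.43 to 0.094, adjusted p = 0.337). *BACH1*, the repressor, had 3.88, 4.65, and 4.67 in the control group and 3.24, 5.79, and 4.56 in the case group. Its case values lay on both sides of the control values, and the log2 fold change was 0.084 (95% confidence interval -0.33 to 0.50, adjusted p = 0.778).

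*OSGIN1* (ENSG00000140961, chr16:83931311-83966332), an NRF2 target named for its induction by oxidative stress and its restraint of growth, had the largest fold change of the 41. The FPKM of *OSGIN1* was 16.5, 16.9, and 17.6 in the control group and 45.9, 37.9, and 43.0 in the case group. The 3 case values were well separated from the 3 control values. The log2 fold change was 1.38 (SE 0.10, adjusted p = 0.00152), or 2.60-fold (95% confidence interval 2.21 to 3.07), and by its p-value it ranked 8 among the 13599 tested genes. It was a DE gene without each of the 6 libraries in turn and in all 13 other processing settings.

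**Figure D2:**
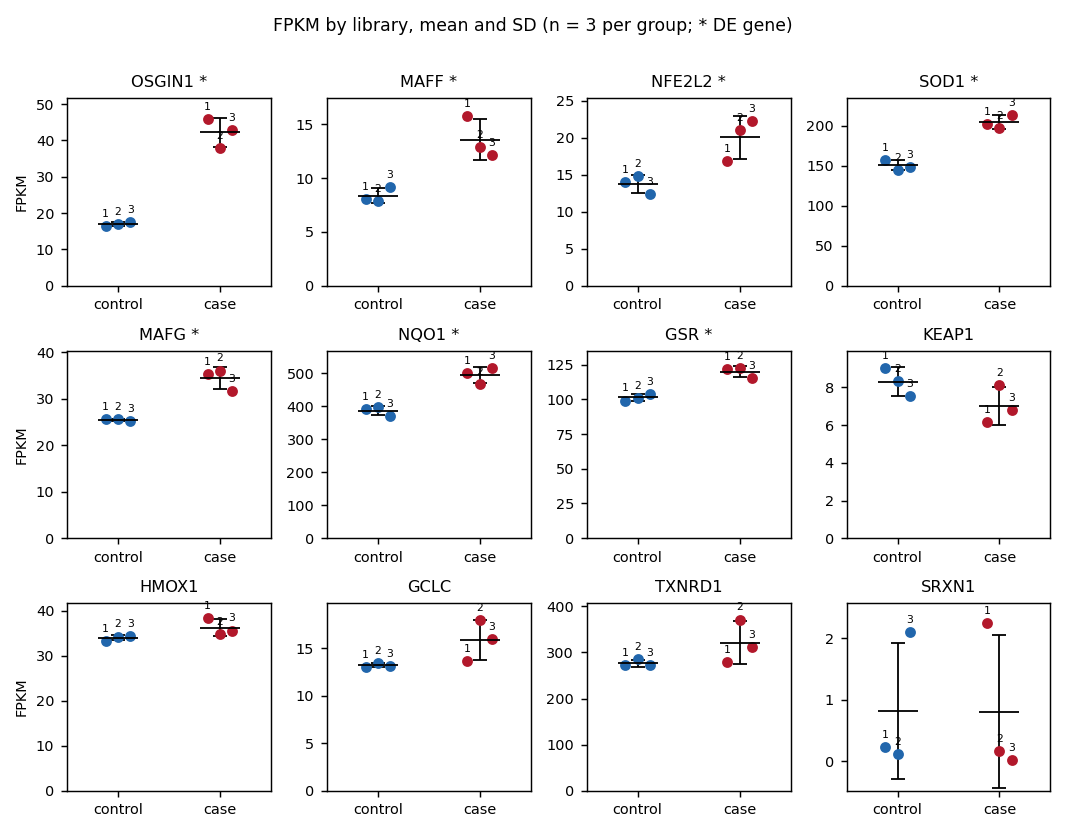
FPKM (y axes, starting at 0 except for *SRXN1*) of 12 genes in the control and case groups, with points numbered by replicate, and bars for the mean and SD of 3 libraries. Relative to the control level, the case and control points of *OSGIN1* are the farthest apart (37.9 to 45.9 against 16.5 to 17.6). Those of *KEAP1*, *TXNRD1*, and *SRXN1* overlap.

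None of the 5 genes of heme breakdown and iron storage was a DE gene by limma with the main settings. *HMOX1*, heme oxygenase 1, which opens the heme ring and is one of the most used reporters of NRF2 activity, had FPKM values of 33.4, 34.3, and 34.5 in the control group and 38.4, 34.9, and 35.6 in the case group. The groups did not overlap, but the gap was small, and the log2 fold change was 0.17 (95% confidence interval -0.023 to 0.36, adjusted p = 0.197). *BLVRB*, a biliverdin reductase, had a log2 fold change of 0.24, and *SLC48A1*, a heme transporter, had 0.049.

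The ferritin chains *FTL* and *FTH1*, which store iron in a form that cannot generate radicals, had log2 fold changes of 0.23 (adjusted p = 0.163) and 0.19 (adjusted p = 0.479). Within a library the ratio of *FTH1* to *FTL* FPKM was 0.119, 0.105, and 0.152 in the control group and 0.142, 0.125, and 0.0988 in the case group. The ratios overlapped, and the mean log2 ratio differed by -0.041 (two-sided exact permutation test, p = 0.8, where the smallest p that 3 against 3 can give is 0.1). Without control replicate 3 the difference was 0.11 and without case replicate 3 it was 0.10, so its direction rested on single libraries. Both ferritin genes have processed pseudogenes, and reads shared with them could have been dropped or split.

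Of the 4 genes that make and reduce glutathione, *GSR* was upregulated. *GSR* (ENSG00000104687) encodes glutathione reductase, which restores reduced glutathione with NADPH. It had FPKM values of 99.2, 101.3, and 103.9 in the control group and 122.0, 122.4, and 115.6 in the case group, with no overlap. The log2 fold change was 0.32 (SE 0.072, adjusted p = 0.0296), the smallest among the 7 DE genes. *GSR* was a DE gene in 7 of 13 other settings, and its log2 fold change was 0.13 with quantile normalization and 0.12 with TPM, where it was not one.

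*GCLC*, the catalytic subunit of glutamate-cysteine ligase, the rate-limiting enzyme of glutathione synthesis, had FPKM values of 13.1, 13.4, and 13.2 in the control group and 13.7, 18.0, and 16.0 in the case group. *GCLM*, its modifier subunit, had 14.3, 14.9, and 16.5 in the control group and 15.5, 18.0, and 18.4 in the case group. Case replicate 1 was close to the control values for both genes and below control replicate 3 for *GCLM* before scaling between libraries. *GCLC* missed the threshold narrowly with a log2 fold change of 0.33 (SE 0.093, adjusted p = 0.0527), and *GCLM* had 0.25 (SE 0.090, adjusted p = 0.0941). The ratio of *GCLM* to *GCLC* was 1.096, 1.112, and 1.251 in the control group and 1.13, 1.00, and 1.151 in the case group, and the difference in mean log2 ratio was -0.076 (two-sided exact permutation test, p = 0.6). *GSS*, glutathione synthetase, had a log2 fold change of 0.15 (adjusted p = 0.312).

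None of the 3 genes of the thioredoxin system was a DE gene by limma with the main settings. *TXNRD1*, the selenoenzyme that reduces thioredoxin, had FPKM values of 272.0, 284.8, and 272.8 in the control group and 279.2, 371.3, and 311.7 in the case group. Case replicate 1 lay within the control range before scaling and above it after scaling, and the log2 fold change was 0.28 (SE 0.094, adjusted p = 0.0835). *TXN*, thioredoxin itself, had 0.23 (SE 0.088, adjusted p = 0.117). *TXNRD1* was an upregulated DE gene in 3 of 13 other settings, among them limma-voom on recovered reads (adjusted p = 0.0478).

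*SRXN1*, sulfiredoxin, which rescues overoxidized peroxiredoxins, could not be compared. *SRXN1* was at 0.239, 0.124, and 2.09 FPKM in the control group and 2.24, 0.162, and 0.0241 in the case group. These values came from 1 to 101 reads per library, and control replicate 3 and case replicate 1 stood far above the other libraries. The log2 fold change was -0.32 with an SE of 1.20. For the same pair of libraries the paper lists the highest shares of adapter-polluted and ploy-N reads. *FTH1* was also highest in that pair, at 399.7 FPKM in control replicate 3 and 442.0 in case replicate 1. A link between these values was not tested.

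The 6 peroxiredoxins are thiol peroxidases of the cytosol (*PRDX1*, *PRDX2*, *PRDX6*), the mitochondria (*PRDX3*, *PRDX5*), and the endoplasmic reticulum (*PRDX4*). Their log2 fold changes ran from 0.077 (*PRDX5*) to 0.33 (*PRDX4*), and none was a DE gene by limma with the main settings. *PRDX4* had FPKM values of 64.5, 67.95, and 61.4 in the control group and 78.6, 67.94, and 85.5 in the case group. Case replicate 2 was within the control range before scaling, and the adjusted p was 0.0785. *PRDX4* was an upregulated DE gene in 1 of 13 other settings, limma-voom on recovered reads (adjusted p = 0.0415). With quantile normalization *PRDX5* had a log2 fold change of -0.27 and was a downregulated DE gene (limma, adjusted p = 0.0178), and *PRDX1* had -0.021, so the sign of these genes depended on the scaling.

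Among the 4 glutathione peroxidases, *GPX1*, the main cytosolic enzyme, came closest to the threshold. It had FPKM values of 197.2, 182.5, and 187.2 in the control group and 261.6, 208.9, and 240.5 in the case group. All case values were above the control values, and case replicate 2 was the nearest to them. Its log2 fold change was 0.40 (SE 0.11, adjusted p = 0.0523). It was an upregulated DE gene in 4 of 13 other settings, among them limma-voom on recovered reads (adjusted p = 0.0189). *GPX4*, which reduces lipid hydroperoxides in membranes and restrains ferroptosis, had a log2 fold change of 0.27 (SE 0.10, adjusted p = 0.108). *GPX3*, the secreted plasma form made mostly by the proximal tubule, had -0.11 (adjusted p = 0.419), and *GPX8*, of the endoplasmic reticulum, had 0.13 (adjusted p = 0.476).

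*SOD1* (ENSG00000142168, chr21:31659666-31668931), the copper and zinc superoxide dismutase of the cytosol, was upregulated. It had FPKM values of 157.3, 145.2, and 149.0 in the control group and 202.9, 197.4, and 213.8 in the case group. The lowest case value was well above the highest control value, and the log2 fold change was 0.52 (SE 0.079, adjusted p = 0.0127), the lowest adjusted p of the 7 after that of *OSGIN1*. With quantile normalization the log2 fold change was 0.30 (adjusted p = 0.0203). *CAT*, the catalase that removes the hydrogen peroxide formed, had a log2 fold change of 0.12 (adjusted p = 0.338).

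Of the 11 genes of detoxification and export, *NQO1* was upregulated. *NQO1* (ENSG00000181019, chr16:69706996-69726668) encodes a quinone reductase that avoids semiquinone radicals. It had FPKM values of 391.2, 399.3, and 371.0 in the control group and 500.6, 468.5, and 516.1 in the case group. The groups did not overlap, and the log2 fold change was 0.43 (SE 0.084, adjusted p = 0.0213). Its call was lost under quantile normalization (log2 fold change 0.099), without a filter, without the intensity trend, and under the replicate block with exon length correction. It was also lost without control replicate 1, 2, or 3 and without case replicate 3 (limma, adjusted p up to 0.0976).

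The aldo-keto reductases, which reduce reactive carbonyls and are among the most inducible NRF2 targets in human cells, were weakly expressed. *AKR1B10* had FPKM values of 1.11, 1.18, and 0.990 in the control group and 1.92, 1.39, and 1.23 in the case group, and a log2 fold change of 0.49 (SE 0.21, adjusted p = 0.142) on 30 to 56 reads per library. *AKR1C3* had 0.29 (adjusted p = 0.135), *AKR1C1* had 0.20 (adjusted p = 0.328), and *AKR1C2* had -0.087 (adjusted p = 0.837). *AKR1C1* and *AKR1C2* are nearly identical in sequence, so the split of reads between them is uncertain.

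The conjugating enzymes *GSTP1* and *MGST1*, both glutathione transferases, each had a log2 fold change of 0.20, and *EPHX1*, the microsomal epoxide hydrolase, had 0.21. *UGDH*, which makes UDP-glucuronate, had -0.19, with overlapping groups. *ABCC1*, an exporter of glutathione conjugates, was the only one of the 41 whose 3 case values were all below the control values after scaling. *ABCC1* was at 12.3, 12.99, and 12.7 FPKM in the control group and 9.95, 10.6, and 9.05 in the case group, with a log2 fold change of -0.29 (SE 0.086, adjusted p = 0.0635). *ABCC2*, a related exporter, had 0.071 (SE 0.30).

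**Figure D3:**
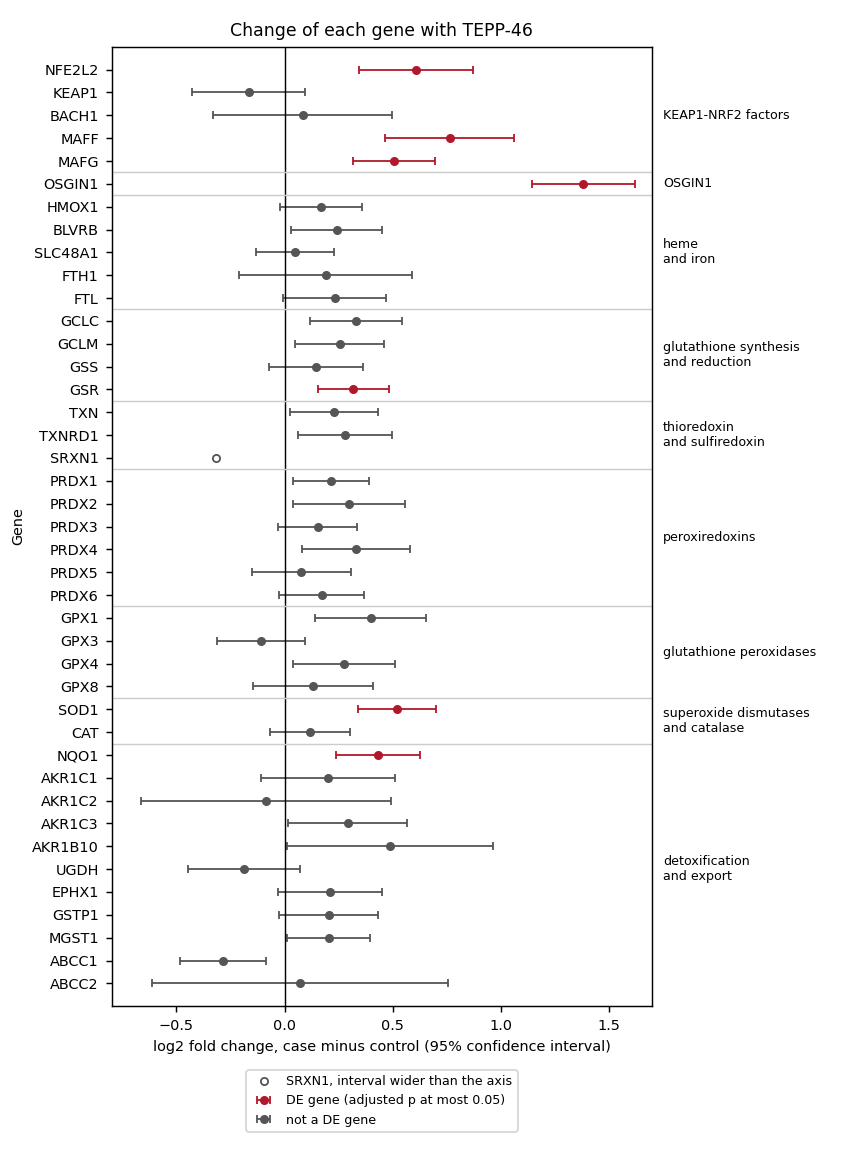
Log2 fold change of each of the 41 genes, case minus control (x axis), with 95% confidence intervals from limma, by role; red points are the 7 DE genes. Most points are to the right of 0, *OSGIN1* is at 1.38, and *SRXN1* is drawn without its interval, which runs from -3.09 to 2.46.

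The case libraries did not move equally. The median log2 difference of the 41 genes from the control mean was 0.30 in case replicate 1, 0.10 in case replicate 2, and 0.27 in case replicate 3. Case replicate 2 was the lowest of the case libraries for 23 of the 41 genes (56.1%, beside 35.0% of all tested genes), among them *OSGIN1*, *SOD1*, *NQO1*, *GPX1*, and *FTL*. Case replicate 1 was the lowest for 10 genes (24.4%, beside 39.2% of all tested genes), among them *NFE2L2*, *KEAP1*, *GCLC*, *GCLM*, and *TXNRD1*. The median exon length was 2306 bases for the former genes and 6068 bases for the latter.

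Gene length moved with the result across all genes. The median log2 fold change was 0.16 in the 1 of 4 equal groups of tested genes with the shortest exons, which held 17 of the 41, and -0.17 in the group with the longest, which held 6. After correction of each library for exon length, 9 of the 41 were upregulated, beside 6.70% of all tested genes, and the median log2 fold change of the 41 was 0.12. All 7 DE genes were among the 9, joined by *GCLC* and *TXNRD1*.

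The case libraries differed more from each other than the control libraries. Over all tested genes the median SD of log2 values was 0.19 in the case group and 0.089 in the control group. The fits used a common variance per gene for both groups. The number of DE genes depended on which libraries were included. Without control replicate 1, 2, or 3 only *OSGIN1* was upregulated, beside 0.558%, 0.404%, and 0.5% of all tested genes. Without case replicate 3, *OSGIN1* and *MAFG* were, beside 0.890%. Without case replicate 1 there were 10, beside 8.92%, and without case replicate 2 there were 18, beside 13.4%. The median log2 fold change stayed between 0.20 and 0.26 in these 6 fits. On whole reads recovered from the FPKM values, limma-voom gave 11 upregulated genes, beside 9.57%. All 7 DE genes were among the 11, joined by *GCLC*, *TXNRD1*, *PRDX4*, and *GPX1*. Quantile normalization and TPM gave 5 each, beside 6.42% and 2.82%. TPM moved the median of all genes to -0.19, and the median of the 41 was then 0.011. With quantile normalization the median of the 41 was 0.066 while that of all genes was -0.0037. At an unadjusted p under 0.05, 7 of the 41 were higher with TPM (beside 5.83% of all tested genes), 9 with quantile normalization (15.7%), 11 with FPKM as deposited (12%), and 13 with exon length correction (16.7%).

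**Figure D4:**
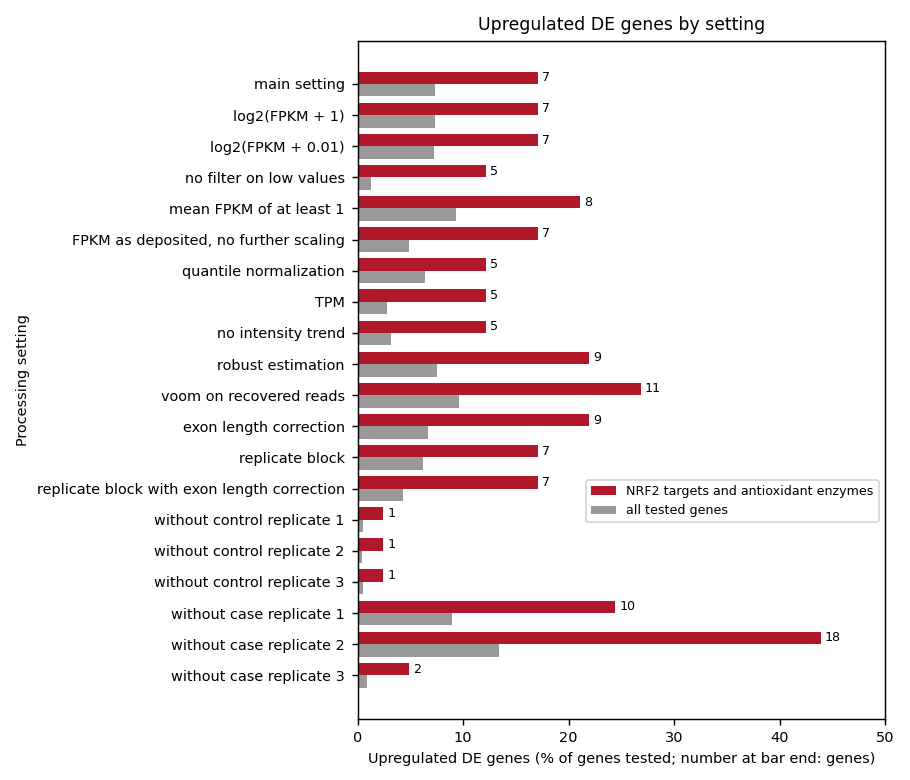
Share of genes called upregulated (x axis, % of genes tested) in each processing setting (y axis), for the 41 genes (red, with the number of genes at the bar end) and for all tested genes (grey). The red bar is longer than the grey bar in each setting, and the number runs from 1 without a control replicate to 18 without case replicate 2.

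The other genes of the pathway were taken from a list of 117, of which 110 matched and 87 were tested. Of the 87, 15 were upregulated (17.2%, beside 7.34% of all tested genes) and 6 were downregulated (6.9%, near the 5.84% of all tested genes), with a median log2 fold change of 0.12. On the side of cystine supply, *SLC3A2*, the heavy chain of the cystine-glutamate exchanger, had the largest change of the list, with FPKM values of 112.7, 104.8, and 102.6 in the control group and 197.5, 166.0, and 178.4 in the case group (log2 fold change 0.83, adjusted p = 0.00748). Its light chain *SLC7A11*, a classical NRF2 target, had 9.30, 10.7, and 10.5 in the control group and 6.75, 14.05, and 10.2 in the case group (log2 fold change 0.039, adjusted p = 0.917). The first had no overlap between groups, and the second had case values on both sides of the controls. *CHAC1*, which degrades glutathione, was upregulated (0.62, adjusted p = 0.0144), and *OPLAH*, which returns oxoproline to glutamate, was downregulated (-0.62, adjusted p = 0.0179).

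*SQSTM1*, the autophagy receptor p62 that can sequester KEAP1, was upregulated with FPKM values of 112.6, 109.8, and 109.8 in the control group and 175.5, 152.9, and 143.7 in the case group (log2 fold change 0.58, adjusted p = 0.0165). *SESN2*, sestrin 2, was also upregulated (0.73, adjusted p = 0.00603) and was a DE gene without each of the 6 libraries in turn. Upregulated as well were *GLRX2*, a mitochondrial glutaredoxin (0.69, adjusted p = 0.00780), *GSTO1*, an omega-class glutathione transferase (0.67, adjusted p = 0.01397), and *TRIM16*, a ubiquitin ligase (0.50, adjusted p = 0.0161). *GSTA4*, an alpha-class transferase for lipid aldehydes (-0.65, adjusted p = 0.0150), and *IREB2*, an iron regulatory protein that represses ferritin translation (-0.63, adjusted p = 0.0416), were downregulated. *TXNIP*, an inhibitor of thioredoxin, had a log2 fold change of -0.38 (adjusted p = 0.291) on 30 to 61 reads per library. Without control replicate 1, 2, or 3 the list had 3, 2, and 1 upregulated genes, beside 0.558%, 0.404%, and 0.5% of all tested genes.

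**Figure D5:**
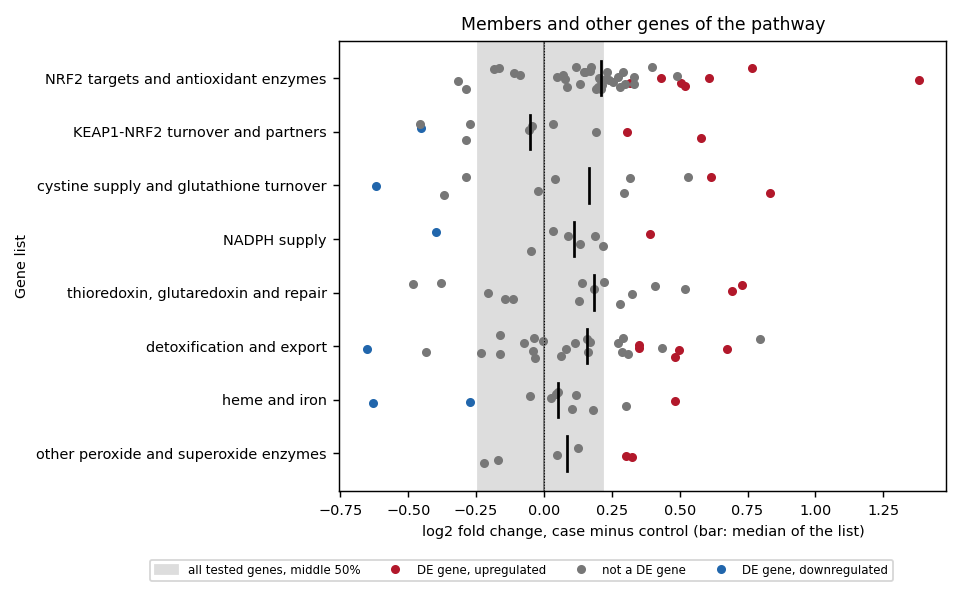
Log2 fold change, case minus control (x axis), of the 41 genes and of the other tested genes of the pathway by list (y axis); red and blue points are upregulated and downregulated DE genes, black bars are list medians, and the grey band is the middle 50% of all tested genes (-0.24 to 0.22). The median of the 41 genes is at 0.21, and the downregulated points are in the other lists.

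The identity of the cells and the quality of the RNA were checked with marker genes. All 10 matched proximal tubule markers of 12 listed were below a mean of 1 FPKM, with a sum of 0.574 to 0.727 FPKM per control library and 0.429 to 0.455 per case library, and *GGT1* was the most abundant. *LRP2* and *CUBN*, the receptors that define the proximal tubule brush border, were at or near 0. The epithelial markers summed to 910.2 to 937.8 FPKM per control library and 733.4 to 910.0 per case library, led by *KRT19*. Among them *CDH1*, E-cadherin, was downregulated, with 3.34, 3.50, and 3.40 FPKM in the control group and 1.83, 2.32, and 2.00 in the case group (log2 fold change -0.64, adjusted p = 0.0156). *PAX8*, of the same list, was below the filter, at 0.065 to 0.19 FPKM on 9 to 22 reads per library. The other epithelial markers were not DE genes, although all case values of *KRT8* lay below its control values (log2 fold change -0.27, limma, adjusted p = 0.125). The markers of endothelium, fibroblasts, and leukocytes stayed below 0.5 in every library. Of 4 podocyte markers 3 matched, and they summed to 21.6 to 23.2 FPKM per control library and 11.3 to 15.6 per case library, mostly from *SYNPO* (log2 fold change -0.63, adjusted p = 0.0263), and *PODXL* was also downregulated (-0.63, adjusted p = 0.0310). Those of the loop and distal tubule (4 of 6 matched) summed to 2.08 to 2.71 and 1.35 to 1.51 FPKM, almost all from *SCNN1A* (log2 fold change -0.65, adjusted p = 0.0252).

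The nuclear RNAs *MALAT1* and *NEAT1* summed to 5.11, 4.78, and 7.10 FPKM in the control group and 11.5, 32.2, and 44.4 in the case group, and the difference came from *MALAT1* (log2 fold change 2.84, adjusted p = 0.0150), since *NEAT1* had overlapping groups and a log2 fold change of 0.11 (adjusted p = 0.670). Mitochondrially encoded mRNAs took 2.06 to 2.18% of the reads of control libraries and 2.72 to 3.14% of those of case libraries. These values and those of *CDH1*, *SYNPO*, *PODXL*, and *SCNN1A* moved with the groups, and their part in the changes of the 41 genes was not tested.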

How the data were processed

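The authors filtered reads, aligned them to GRCh38.p13 with HISAT2 2.1.0, counted genes with HTSeq 0.6.0, and deposited FPKM values, 1 column per library. Strand setting and annotation version are not given in the sources used here. FPKM were divided by median-of-ratios factors and tested as log2(FPKM + 0.1) with limma 3.58.1 (R 4.3.3, intensity trend) for genes of mean FPKM of at least 0.5, so fold changes of low genes are understated. Adjustment was by Benjamini-Hochberg over 13599 genes, and a DE gene had an adjusted p of at most 0.05. Whole reads were recovered from the FPKM steps for 27921 of 27922 genes (within 0.01 read; 977 with help of exon length), making up 99.9% or more of each library. The study describes the 6 samples as independent, separately treated replicates of 1 cell line, so p-values measure the spread between samples of that line. Symbols, positions, and exon lengths came from GENCODE v44, and promoters from RefSeq. The members and lists were chosen with earlier results of these data known. Named genes were the members, the 10 most changed DE genes of the wider list, *SLC7A11*, *SQSTM1*, *TXNIP*, and markers, and 1 gene that the rule names is not reported here. On simulated data for this comparison with 13584 genes tested, limma recovered 31.3% of changes of 0.5, 89.2% of 1, and 100% of 2 (log2). The simulation used 1 level of spread (dispersion 0.00727), but the real libraries had unequal spread (median SD 0.19 for case, 0.089 for control). These rates therefore do not give the share of real changes that limma found. Alternatives were other pseudocounts, filters, scalings, variance models, voom, exon length correction, a replicate block, and leaving out each library.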

Additional observations from a re-analysis of the deposited data

How the results depend on the processing

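All 7 DE genes remained upregulated DE genes with either pseudocount, FPKM as deposited, a filter at a mean of 1 FPKM, robust estimation, voom, and exon length correction. With no filter, quantile normalization, or no intensity trend 5 of them remained (without *NQO1* and *GSR*), and with TPM 5 (without *NFE2L2* and *GSR*). In all fits tried each kept a positive log2 fold change. Voom gave 11 upregulated and 1 downregulated; the downregulated gene, *ABCC1*, was also called at a mean FPKM of at least 1 (1), with FPKM as deposited (1), and with quantile normalization and TPM (2 each, with *PRDX5* and *GPX3*). With TPM the median of the 41 was 0.011 while that of all genes was -0.19. Among all tested genes, 347 were upregulated and 177 downregulated with no filter, 662 and 1124 with FPKM as deposited, 383 and 2387 with TPM, 433 and 414 without the trend, and 1301 and 1512 with voom, beside 998 and 794 with the main settings. The wider list had 6 and 1 with no filter, 7 and 16 with TPM, 7 and 2 without the trend, 23 upregulated with voom, and 3 downregulated with exon length correction. The cause of these differences was not tested.

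Replicate numbers did not pair the libraries: correlations of same-numbered deviations were 0.0634, 0.0998, and -0.0534, and not every library correlated best with its own number. Over all pairs of a control and a case library they ran from -0.182 (control replicate 2 with case replicate 1) to 0.117 (control replicate 3 with case replicate 1). With the replicate block 7 of the 41 were upregulated (6 shared, *GPX1* in place of *GSR*), and 848 and 762 of all genes were called. With the replicate block and exon length correction 7 were (5 shared), the wider list had 3 downregulated, and 590 and 401 of all genes were called.

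Leaving out 1 library gave 1 to 18 upregulated and 0 to 1 downregulated of the 41, 1 to 26 and 0 to 11 of the wider list, and 55 to 1813 and 14 to 1682 of all tested genes. The *FTH1* to *FTL* difference ran from -0.16 to 0.11 and that of *GCLM* to *GCLC* from -0.11 to -0.012. Fold changes that changed sign were *BACH1* (-0.086 to 0.28), *SRXN1* (-1.58 to 0.67), *PRDX5* (-0.0043 to 0.16), and *ABCC2* (-0.062 to 0.34).

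Other signs depended on the scaling, and none of these genes was a DE gene with the main settings. With TPM, log2 fold changes were -0.11 for *BACH1*, -0.031 for *HMOX1*, -0.15 for *SLC48A1*, -0.0094 for *FTH1*, -0.054 for *GSS*, -0.047 for *PRDX3*, -0.12 for *PRDX5*, -0.028 for *PRDX6*, -0.067 for *GPX8*, -0.081 for *CAT*, and -0.098 for *ABCC2*. With quantile normalization they were -0.11 for *FTH1*, -0.038 for *GSS*, -0.17 for *TXN*, -0.0077 for *TXNRD1*, -0.021 for *PRDX1*, -0.27 for *PRDX5*, and -0.00095 for *GPX4*. It was -0.027 for *SLC48A1* with FPKM as deposited and -0.10 for *PRDX5* with exon length correction, with or without the replicate block. *AKR1B10*, *ABCC2*, *AKR1C2*, and *TXNIP* had 30 to 88 reads per library, which limits their precision. *SRXN1* had 1 to 101 reads in libraries of similar size, and the cause of that spread was not tested.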
